A study of Rattus norvegicus with 2 samples.

Results

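Vegfa, Hbegf, Areg, Osm and Pdgfb encode secreted factors that act on vessels, fibroblasts, epithelium and heart muscle, and the cells that held their transcripts were described in leukocytes of the infarcted rat heart. The members were taken by symbol, and all 5 were found among the 26976 symbols of the count matrix. Source cells were monocytes, macrophages, neutrophils and T cells, defined by marker genes, with the other classes of the same sort beside them. The series asked what a PUR-hAESC patch, by common reading of the name a polyurethane carrier with human amniotic epithelial stem cells, does to cardiac immune cells. Its groups are wild-type (wt) rats with a myocardial infarction (MI) and wt rats with an infarction and the patch (MI+PUR-hAESC), each with 1 sample taken 7 days after surgery. Left ventricles with infarct and border zone were digested, and living cells positive for CD45, the pan-leukocyte surface protein, were sorted. No label gives the ages of the rats or the number of hearts behind a sample, and the patch brings human cells whose own transcripts were not analysed here.

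Barcodes of the matrix end in 1 or 2, which marks its 2 libraries, but neither the labels nor the files say which of them came from which group. They are called library 1 and library 2 after that ending, so a difference between them says nothing of the patch. With 1 library per group nothing was tested. Levels are given in CPM, the gene's UMIs (unique molecular identifiers, 1 per captured transcript end) in 1000000 UMIs of a class of cells, with exact 95% Poisson intervals. These intervals cover counting error only, and they are too narrow where a few cells hold many of the UMIs. After filtering, 13334 and 14434 cells remained of 14283 and 15666 barcodes with a median of 3692 and 4367.5 UMIs. The libraries shared 71 barcodes. A table of 33756 barcodes from other libraries shared 47 to 64 barcodes with a library of the matrix, and was not used.

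Each of these factors has its own receptor system. VEGF-A, the product of Vegfa, is a main signal for the growth and permeability of vessels and is induced by low oxygen. Amphiregulin (Areg) and heparin-binding EGF (Hbegf) belong to the EGF family: they are made as membrane-bound precursors, are released by proteases such as ADAM17, and bind the EGF receptor. Oncostatin M (Osm) is a cytokine of the interleukin 6 family, and PDGF-B (Pdgfb) recruits pericytes and smooth muscle cells to vessels. In an infarct, leukocytes are known as one source of such factors, beside endothelium, fibroblasts and heart muscle.

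Cells were assigned to classes by marker lists, and a class name below means the cells inside that gate. Library 1 and library 2 held 927 and 492 monocytes, 2346 and 2329 macrophages, 4217 and 1768 neutrophils, and 1907 and 3313 T cells. Of the monocytes, 55 and 27 lay near a cut of the gate, of the macrophages 191 and 287, of the neutrophils 90 and 39, and of the T cells 215 and 380. Another 1361 and 1916 cells passed no gate. Of the T cells, 1 in library 1 and 366 in library 2 had a UMI of Rag1 or Dntt, genes of developing lymphocytes. In spite of the sort for CD45, 129 and 45 cells fell in the endothelial gate. All 5 measured endothelial markers stood above 20 CPM there in library 1, but the gate itself selects for them.

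The 5 genes had different main sources. Among the 7 classes with at least 50 cells in each library, Vegfa and Areg were highest in monocytes, Osm in neutrophils and Pdgfb in NK cells, in both libraries. Hbegf was highest in macrophages, though the neighbours in its order could not be separated. Endothelial cells, too few in library 2 for that order, stood above all 7 classes for Hbegf and Pdgfb in both libraries.

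**Figure D1:**
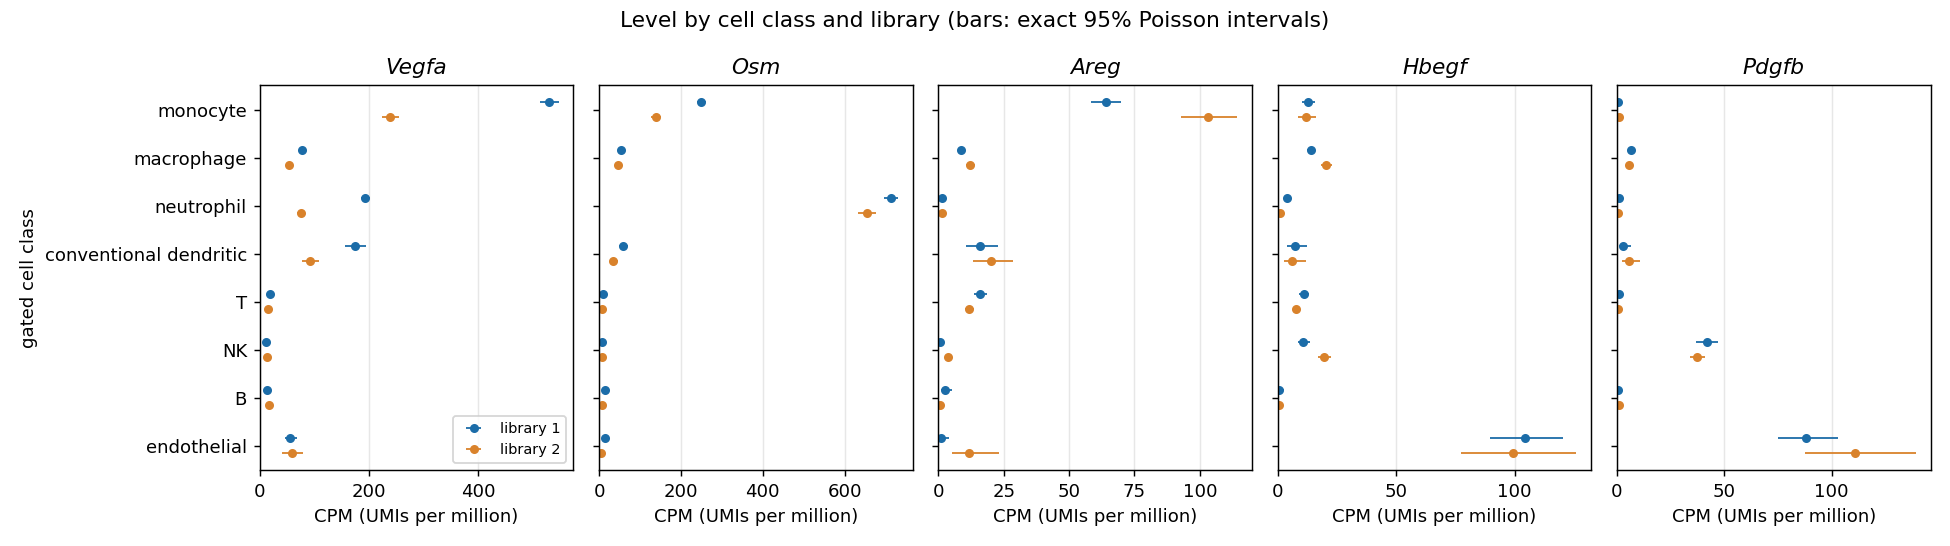
Level of each gene (x axis, CPM, a scale of its own for each gene) in 8 gated cell classes (y axis) of library 1 (blue) and library 2 (orange), with exact 95% Poisson intervals as bars. Vegfa and Areg stand out in monocytes, Osm in neutrophils, and Hbegf and Pdgfb in endothelial cells, with Pdgfb also in NK cells.

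Vegfa, which encodes the vessel growth factor VEGF-A, stood at 531 CPM (515 to 548) in monocytes of library 1 and at 240 CPM (224 to 256) in those of library 2. Neutrophils held 194 CPM (185 to 203) and 76.2 CPM (69.2 to 83.8). Conventional dendritic cells held 175 CPM (156 to 195) and 91.8 CPM (76.8 to 109). Of these 128 and 109 cells, the 10 highest held 44.0% and 59.4% of the Vegfa UMIs. In each library the intervals of neutrophils and dendritic cells overlapped, while monocytes lay apart from both. Macrophages followed with 76.8 CPM (72.6 to 81.1) and 54.3 CPM (50.6 to 58.1). T cells stood at 18.2 and 15.2 CPM and B cells at 13.1 and 16.9 CPM, so that Vegfa in T cells was close to the level in B cells. All kept cells together stood at 139 and 47.7 CPM. B cells serve below as a low reference class. Whether their UMIs were picked up from other cells was not tested.

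Monocytes were 6.95% of kept cells in library 1 and 3.41% in library 2, and held 42.9% and 24.1% of all Vegfa UMIs. Macrophages held 13.8% and 23.3% of them, and neutrophils 20.8% and 12.3%. A Vegfa UMI was seen in 74.0% and 47.6% of monocytes, against 2.87% and 4.21% of B cells, at a median of 7798 and 7072 UMIs per monocyte and 2969 and 2846 per B cell. With each cell thinned to 1500 UMIs, the shares were 42.6% (39.3 to 45.9) and 23.4% (19.7 to 27.4) of monocytes and 1.23% (0.589 to 2.24) and 2.32% (1.66 to 3.16) of B cells. The thinning left out 794 and 965 cells of all classes that were shallower. The signal was spread over many monocytes: the 10 cells with the most Vegfa UMIs held 6.45% and 17.9% of them.

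**Figure D2:**
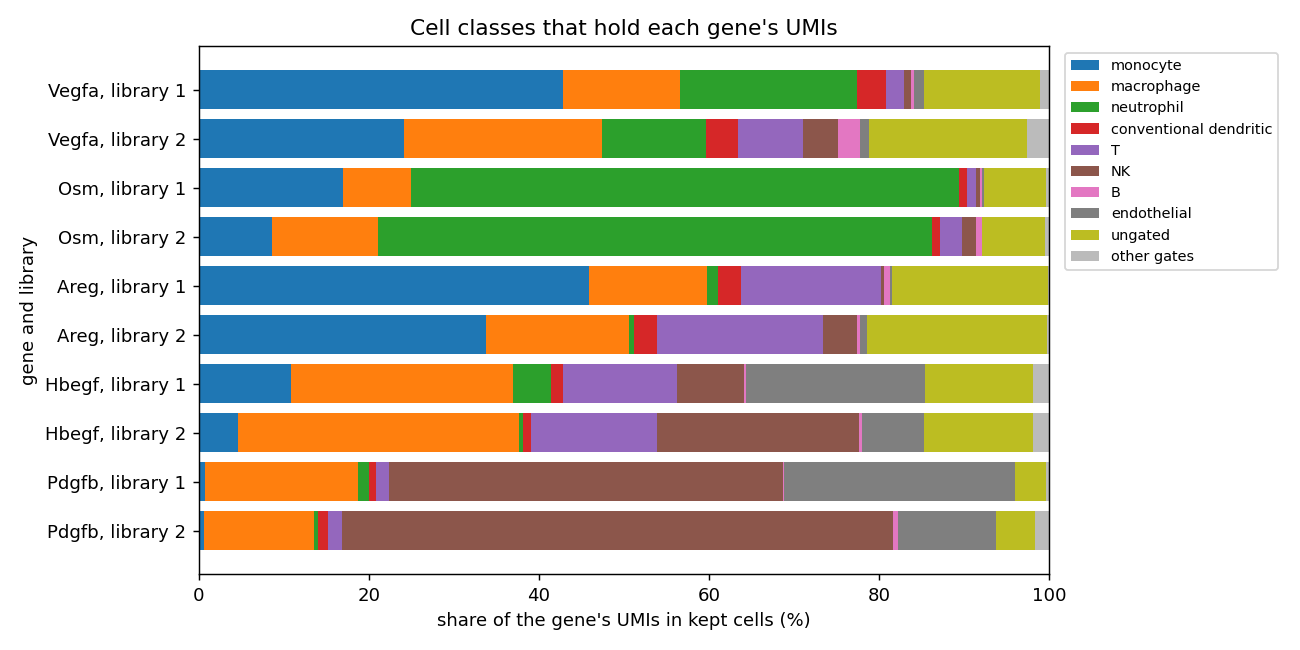
Share of each gene's UMIs in kept cells (x axis, percent) that came from each cell class (colours), for each gene and library (y axis). Neutrophils hold 64.5% and 65.2% of Osm UMIs, and monocytes hold 45.9% and 33.7% of Areg UMIs.

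Areg, which encodes amphiregulin, shared the monocyte as its highest class with Vegfa, at 64.0 CPM (58.4 to 69.9) in library 1, against 103 CPM (92.9 to 114) in library 2. Between the libraries the 2 genes went in opposite directions: Vegfa was the lower in library 2 and Areg the higher. Monocytes held 45.9% and 33.7% of all Areg UMIs. Unlike the broad Vegfa signal, Areg came from few cells. It was seen in 10.6% and 18.5% of monocytes, with 4.90 and 4.04 UMIs per cell that had any, and 10 cells held 42.5% and 39.1% of the UMIs. At 1500 UMIs per cell, 4.84% (3.54 to 6.44) and 8.49% (6.16 to 11.3) of monocytes had an Areg UMI, against 0 of the B cells in library 1, an upper bound of 0.451%, and 0.0595% (0.00151 to 0.331) in library 2.

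Because both genes are highest in monocytes, the bases just before their annotated starts are shown. They are 120 bases from RefSeq on build GRCr8, on the strand of the gene, 5′ to 3′; the build behind the counts is not stated in the labels or files. Areg is at chr14:17265642-17265761 on the minus strand and Vegfa at chr9:22452734-22452853 on the plus strand, and both stretches are upstream of the gene. Capitals mark a cAMP response element (TGACGTCA), a TATA box (TATAAA) or a GC box (GGGCGG).
Areg: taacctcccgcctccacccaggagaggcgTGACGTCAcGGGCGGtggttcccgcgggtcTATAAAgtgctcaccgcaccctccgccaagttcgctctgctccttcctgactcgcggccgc
Vegfa: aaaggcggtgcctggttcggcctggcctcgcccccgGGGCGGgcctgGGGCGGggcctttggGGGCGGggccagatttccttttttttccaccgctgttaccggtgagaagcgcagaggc

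The Areg stretch holds 1 cAMP response element, whose first base is 91 bases before the start, 1 GC box 82 bases before it and 1 TATA box 61 bases before it. The Vegfa stretch holds 3 GC boxes, between 84 and 58 bases before the start. Of 33469 promoters in the table, searched over 250 bases upstream on both strands, 1.59% hold the cAMP response element, 12.9% the TATA box and 30.5% the GC box. In the same search, a hypoxia response core (ACGTG), an AP-1 site (TGANTCA) and a STAT site (TTCNNNGAA) had 0 matches in Areg and Vegfa. They occur in 16.6%, 6.34% and 7.67% of promoters. A second Vegfa entry, not at the gene start, had 0 matches of each motif. These matches are descriptions of letters, and binding was not measured. RefSeq entries were matched for 4 of the 5 members, all but Osm.

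Within the T cells, Areg was unevenly spread. Regulatory T cells, marked by Foxp3, Il2ra, Ctla4, Ikzf2 and Tnfrsf4, stood at 56.1 CPM (41.5 to 74.2) in library 1, against 49.3 CPM (37.8 to 63.2) in library 2, over 161 and 202 cells. Amphiregulin from such cells is known for its part in tissue repair. Naive-like T cells stood at 1.28 and 1.16 CPM, and CD8 effector cells at 8.47 CPM (5.96 to 11.7) and 11.1 CPM (8.73 to 13.9). The level in regulatory T cells lay apart from these 2 states in each library. It rests on 16 and 22 cells with an Areg UMI. Dividing T cells held 49.9 CPM (37.1 to 65.8) in library 1, against 12.6 CPM (8.30 to 18.3) in library 2, from 8 and 9 cells with a UMI. Summed markers of neutrophils stood at 766 and 205 CPM in the regulatory T cells and those of monocytes at 379 and 153 CPM; their part in the Areg level was not tested.

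Hbegf, the gene of heparin-binding EGF, stood highest in another T cell state. Type 17 T cells, with Il17a, Il23r and Ccr6 among their markers, held 129 CPM (101 to 163) in library 1, against 78.6 CPM (45.8 to 126) in library 2. Regulatory T cells held 9.17 CPM (3.96 to 18.1) and 6.37 CPM (2.75 to 12.5), and naive-like T cells 1.28 and 0.773 CPM. The type 17 state is small, with 78 and 30 cells, of which 31 and 8 had an Hbegf UMI. All 5 measured endothelial markers were at 0 in type 17 cells of library 1, and 4 of 5 in those of library 2. In the endothelial gate of library 1, which selects for these markers, 0 of 5 were at 0. For Areg the type 17 cells had 1 UMI in library 1 and 0 in library 2, a bound of 17.1 CPM for the latter.

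Across the larger classes Hbegf was low. Macrophages stood at 13.9 CPM (12.2 to 15.8) in library 1, against 20.4 CPM (18.1 to 22.7) in library 2. NK cells stood at 10.9 CPM (8.47 to 13.7) and 19.6 CPM (17.1 to 22.3), and monocytes at 12.8 CPM (10.4 to 15.6) and 12.1 CPM (8.72 to 16.2). In library 1 the intervals of macrophages, monocytes, T cells and NK cells overlapped one after the other, and in library 2 those of macrophages and NK cells did. B cells lay far below with 0.726 and 0.741 CPM. Neutrophils, the main Osm source, held 4.02 CPM and 0.876 CPM, the latter from 5 UMIs.

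Endothelial cells, a known site of Hbegf and Pdgfb transcription, held 104 CPM (89.8 to 120) and 99.4 CPM (77.2 to 126) of Hbegf. They were 0.968% of kept cells in library 1 and 0.312% in library 2, and gave 21.0% and 7.25% of all Hbegf UMIs. For Pdgfb they gave 27.2% and 11.6% of all UMIs, for Vegfa 1.09% and 1.13%, and for Osm and Areg under 1% in each library.

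Among macrophages, the resident state (with Lyve1, Folr2 and Cd163 among its markers) had the highest Hbegf level in each library, 28.5 CPM (22.5 to 35.5) and 29.5 CPM (20.2 to 41.6). Macrophages with the Spp1 program, known from infarct and scar tissue, stood at 11.3 CPM (8.69 to 14.3) and 16.5 CPM (12.3 to 21.8). In library 1 the resident level lay apart from both the Spp1 and the class II state, while in library 2 it overlapped them. Interferon-state macrophages held 1 Hbegf UMI in 107 cells of library 1 and 52 in 422 cells of library 2, of which 10 cells held 80.8%.

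Monocytes split by a UMI of Fcnb, a ficolin gene of classical monocytes in rodents, showed a further difference for Hbegf. Those without Fcnb held 31.5 CPM (23.2 to 41.8) and 54.0 CPM (36.2 to 77.6), and Fcnb-positive ones 8.02 CPM (5.92 to 10.6) and 4.62 CPM (2.53 to 7.75). The 10 highest cells held 75.0% and 79.3% of the UMIs in the cells without Fcnb, which number 181 and 75. Marker lists of some other cell types also summed higher without Fcnb than with it, and those of others lower. The neutrophil list summed to 1179 CPM without against 1542 CPM with Fcnb in library 1, and to 371 against 1706 CPM in library 2. The NK list summed to 48.6 against 115 CPM and 78.3 against 180 CPM. The endothelial list summed to 46.6 against 8.53 CPM in library 1 and 9.32 against 2.64 CPM in library 2, and the macrophage list to 3230 against 1976 CPM and 2506 against 1773 CPM. The platelet list summed to 571 against 119 CPM and 1043 against 123 CPM, with 4 of its 5 genes at 0 in each. Their part in the Hbegf levels was not tested. For Areg the intervals of these monocytes overlapped in each library, at 64.2 and 103 CPM with Fcnb and 63.0 and 104 CPM without. The levels without Fcnb rest on 16 and 13 cells with an Areg UMI, of which 10 held 93.8% and 94.6% of the UMIs. In library 1, 1 cell held 47 of the 96 UMIs.

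The Vegfa order among macrophages was another one. Class II macrophages, marked by RT1-Da, RT1-Db1, RT1-Ba, RT1-Bb and Cd74, held 142 CPM (130 to 154) in library 1, against 76.2 CPM (68.3 to 84.7) in library 2. The Spp1 state held 75.7 CPM (68.7 to 83.1) and 52.5 CPM (44.7 to 61.4). Resident macrophages held 24.8 CPM (19.3 to 31.5) and 23.0 CPM (14.9 to 34.0), and dividing ones 19.9 CPM (10.9 to 33.4) and 22.6 CPM (14.8 to 33.2). The 3 states class II, Spp1 and resident lay apart from each other in each library, in that order. Summed markers of conventional dendritic cells stood at 1218 and 1041 CPM in class II macrophages and 1042 and 1104 CPM in resident ones, and those of monocytes at 374 and 277 CPM in class II, 1060 and 871 CPM in Spp1 and 811 and 782 CPM in resident macrophages. Their part in the Vegfa levels was not tested.

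**Figure D3:**
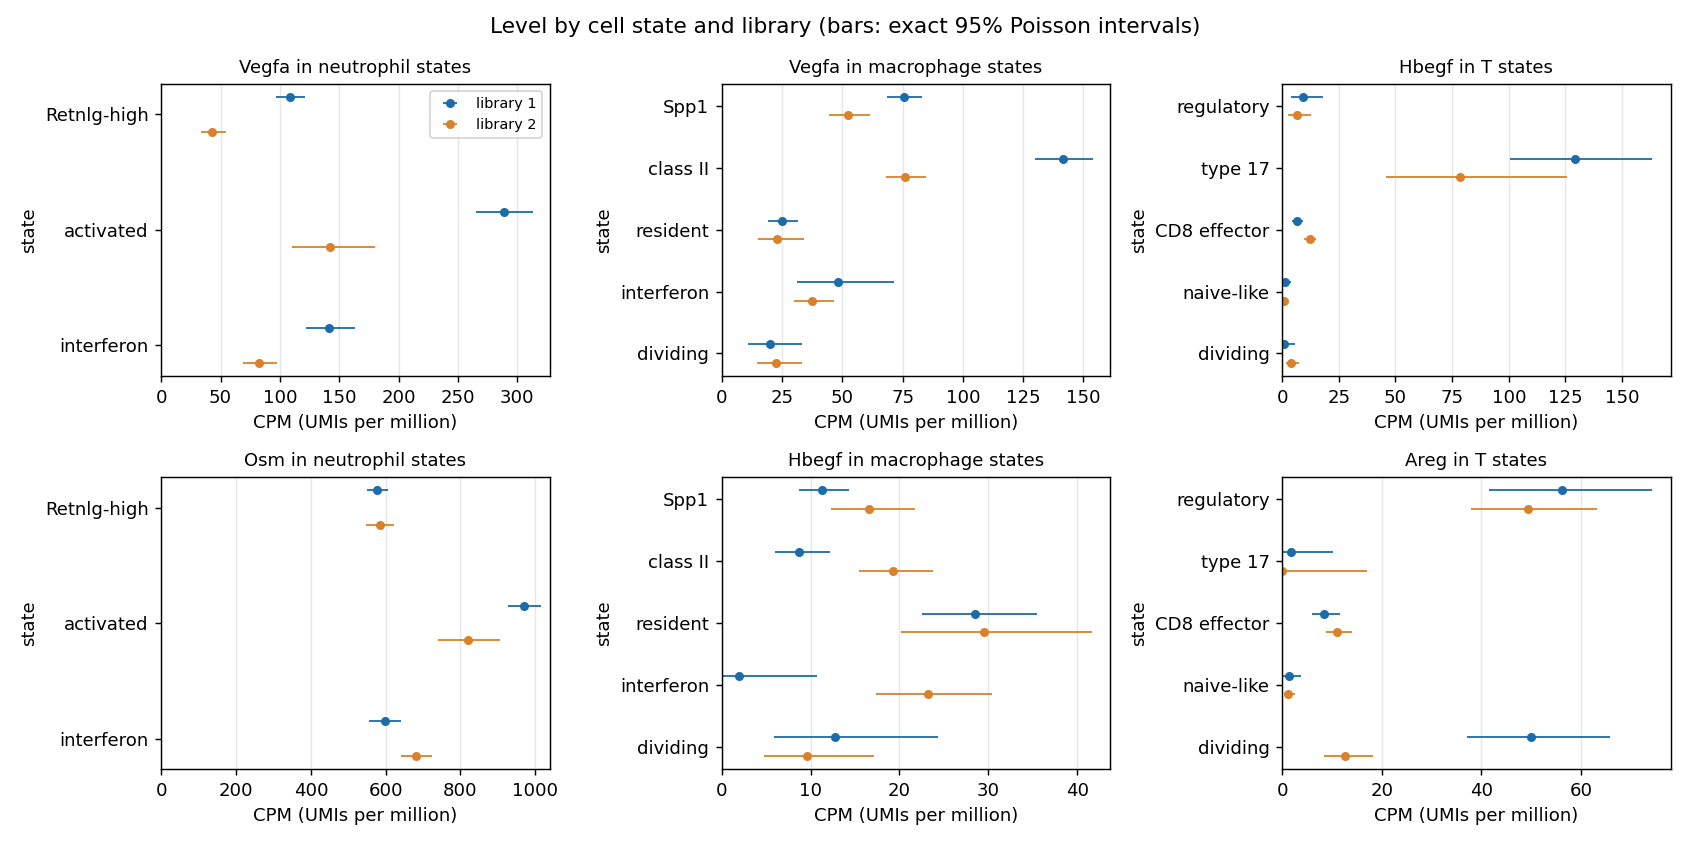
Level (x axis, CPM) of Vegfa, Osm, Hbegf and Areg by state (y axis) of neutrophils, macrophages or T cells in library 1 (blue) and library 2 (orange), with exact 95% Poisson intervals as bars. Vegfa and Osm are highest in activated neutrophils, Hbegf stands out in type 17 T cells at 129 and 78.6 CPM, and Areg in regulatory T cells at 56.1 and 49.3 CPM.

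Osm, which encodes oncostatin M, was foremost a neutrophil transcript, at 713 CPM (696 to 730) in library 1, against 654 CPM (634 to 676) in library 2. Oncostatin M is stored and made by neutrophils and signals through receptors on stromal cells and cardiomyocytes. Neutrophils held 64.5% and 65.2% of all Osm UMIs, although they were 31.6% of kept cells in library 1 and 12.3% in library 2. An Osm UMI was seen in 62.7% and 67.2% of neutrophils, and in 53.1% (51.5 to 54.7) and 51.1% (48.7 to 53.6) of them at 1500 UMIs. In B cells at that depth the share was 1.84% (1.03 to 3.01) and 1.07% (0.636 to 1.69).

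Monocytes came next for Osm with 250 CPM (239 to 261) and 139 CPM (127 to 152). Macrophages held 52.5 CPM (49.1 to 56.1) and 46.8 CPM (43.4 to 50.4), and conventional dendritic cells 59.3 CPM (48.6 to 71.6) and 35.2 CPM (26.2 to 46.3). The intervals of these 2 classes overlapped in each library. T cells stood at 9.90 and 8.43 CPM, and B cells at 13.8 and 6.67 CPM. The lymphocytes thus stood near each other and far below the myeloid classes.

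Activated neutrophils, marked by Ptgs2, Il1b, Ccl3, Ccl4, Icam1, Cd274 and Tnf, held the most Osm, 971 CPM (929 to 1015) and 820 CPM (741 to 905). Retnlg-high neutrophils, which carry granule genes, held 578 CPM (550 to 606) and 585 CPM (548 to 624). Vegfa followed the same order, with 289 CPM (266 to 313) and 142 CPM (111 to 180) in activated and 109 CPM (96.8 to 121) and 42.8 CPM (33.2 to 54.2) in Retnlg-high cells. Macrophage markers summed to 737 and 375 CPM in the activated and 537 and 536 CPM in the Retnlg-high state, and their part in these levels was not tested.

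Pdgfb, the gene of PDGF-B, was rare in monocytes and neutrophils, the highest classes for Vegfa and Osm in that order. In monocytes it had 4 UMIs in each library, and in neutrophils 7 and 3. NK cells held 41.7 CPM (36.9 to 47.0) in library 1, against 37.4 CPM (33.9 to 41.1) in library 2, and gave 46.3% and 64.7% of all Pdgfb UMIs. The endothelial markers summed to 2.33 and 0.966 CPM in these NK cells and the platelet markers to 15.4 and 16.8 CPM; their part in the Pdgfb level was not tested. At 1500 UMIs, 6.52% (5.25 to 7.99) and 5.56% (4.62 to 6.62) of NK cells had a Pdgfb UMI, against 0.123% and 0.238% of B cells.

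Endothelial cells stood higher for Pdgfb, at 88.0 CPM (74.8 to 103) and 111 CPM (87.6 to 139). Macrophages held 6.30 CPM (5.15 to 7.63) and 5.58 CPM (4.46 to 6.90), and T cells, close to NK cells in lineage, 0.841 and 0.614 CPM. A split of the NK cells by a UMI of the granzyme gene Gzma, chosen after the values were seen, gave 43.3 CPM (35.1 to 52.8) and 34.7 CPM (29.3 to 40.9) with Gzma and 40.9 CPM (35.0 to 47.5) and 38.9 CPM (34.5 to 43.7) without. These intervals overlapped in each library, and the 10 highest cells held 13% and 8.45% of the UMIs. Pdgfb was uneven over the 4 Leiden clusters named NK, with both libraries pooled: it stood at 69.3 CPM in cluster 25, led by Gzma and Prf1, at 39.1 CPM in cluster 19, the largest, at 23.95 CPM in cluster 18 and at 11.3 CPM in cluster 1.

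Between the libraries, a ratio was formed for each class with at least 200 cells in each, where the gene reached 20 CPM in either library. On the scale of log2(CPM + 10), a size of 2-fold was used as the mark, which is no test. Of the 9 ratios of members, 2 were past 2-fold, both of Vegfa and both higher in library 1. In neutrophils 1 of 2 ratios was past it, against 2.78% of all genes, in monocytes 1 of 3 against 2.28%, in macrophages 0 of 3 against 1.00% and in NK cells 0 of 1 against 0.576%. No member reached the minimum in T cells, where 0.589% of genes were past 2-fold, or in B cells, where 0.301% were.

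**Figure D4:**
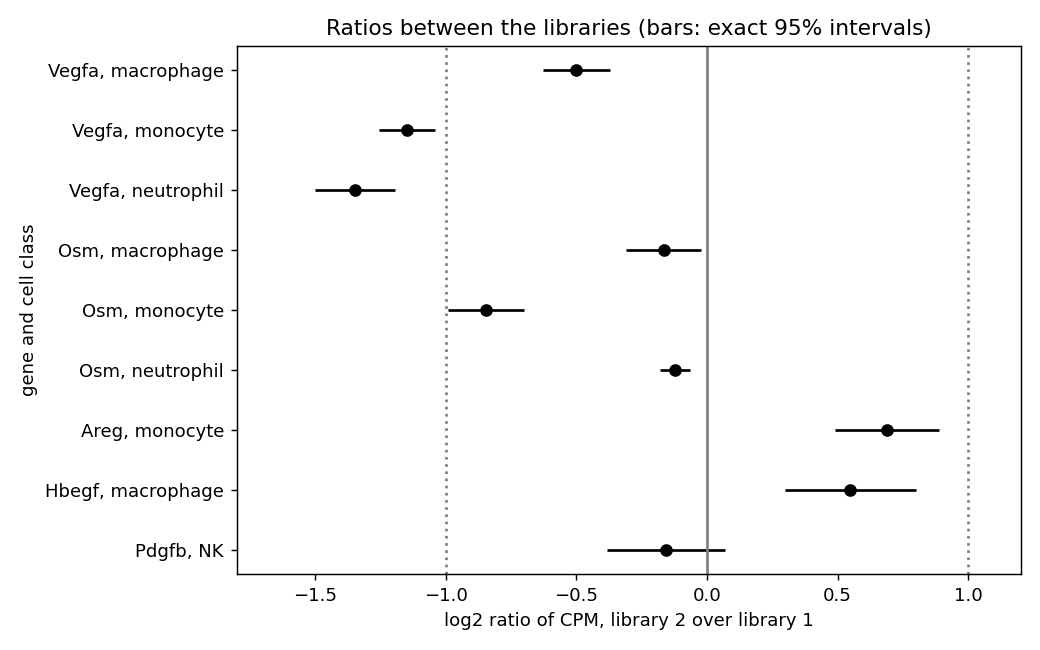
Ratio of CPM between the libraries (x axis, log2 of library 2 over library 1, no pseudocount) for the 9 pairs of gene and cell class that reached 20 CPM (y axis), with exact 95% intervals as bars and dotted lines at 2-fold. The intervals of Vegfa in monocytes and neutrophils lie wholly beyond 2-fold, and those of Areg in monocytes and Hbegf in macrophages lie on the other side of 0.

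Vegfa in neutrophils was 2.54-fold (2.29 to 2.83) higher in library 1, a log2 ratio of -1.24. In monocytes it was 2.22-fold (2.06 to 2.39) higher in library 1, a log2 ratio of -1.12, and in macrophages 1.41-fold (1.30 to 1.55). The lower level in library 2 held in each named state of the neutrophils: the fold was 2.54 (1.95 to 3.35) in Retnlg-high, 2.03 (1.58 to 2.65) in activated and 1.71 (1.36 to 2.16) in interferon-state cells. In neutrophils with no state the fold was 2.76 (2.34 to 3.28). The libraries held unlike mixes of neutrophils. By Leiden cluster, with the level pooled over both libraries, cluster 13 (276 CPM of Vegfa) held 2038 and 461 cells. Cluster 5 (137 CPM) held 1560 and 77, and cluster 6 (61.7 CPM) held 700 and 1252. The part of this mix in the neutrophil ratio was not tested. Among monocytes the fold was 2.40 (2.22 to 2.61) in Fcnb-positive cells and 1.5 (1.3 to 1.8) in those without Fcnb. In NK cells Vegfa stood at 12.3 and 12.9 CPM, and in B cells at 13.1 and 16.9 CPM, with ratios whose intervals included 1. Thbs1, a marker of the monocyte gate, also differed between the monocytes, at 674 and 181 CPM; its part in the Vegfa ratio was not tested.

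Osm in neutrophils was nearly level, 1.09-fold (1.05 to 1.13) higher in library 1. In monocytes it was 1.80-fold (1.63 to 1.99) higher in library 1. That came mainly from the Fcnb-positive monocytes, at 250 and 126 CPM, while those without Fcnb stood at 249 and 211 CPM with a ratio whose interval included 1. Areg in monocytes went the other way, 1.61-fold (1.40 to 1.85) higher in library 2, and Hbegf in macrophages was 1.46-fold (1.23 to 1.74) higher in library 2. That Hbegf ratio starts from a level just above the 20 CPM minimum, and with Leiden clusters, a wider gate margin or TMM scaling it fell under the minimum. Pdgfb in NK cells was 1.12-fold (0.954 to 1.30) higher in library 1, and its interval included 1.

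Over all kept cells Vegfa stood at 139 CPM in library 1 and 47.7 CPM in library 2, a 2.92-fold difference, and Osm at 165 and 76.9 CPM, a 2.14-fold difference. The libraries hold unlike shares of each class. With the classes of library 2 weighted by their UMI shares in library 1, the fold was 2.02 for Vegfa and 1.23 for Osm. At equal make-up of classes the Osm fold was thus smaller, though above its interval in neutrophils (1.05 to 1.13), and the Vegfa fold was near 2. The weights cover whole classes only, so unlike mixes of states or clusters within a class remain in these folds. For Areg, Hbegf and Pdgfb the fold of library 1 over library 2 was 1.07, 1.06 and 0.984 over all cells. At equal make-up it was 0.761, 0.925 and 0.954, so that Areg and Hbegf changed direction and were the higher in library 2.

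At 1500 UMIs per cell, Osm was seen more often in cells with a Vegfa UMI than in those without in some classes. In macrophages of library 1, 19.0% (13.1 to 26.1) of the 153 cells with a Vegfa UMI also had one of Osm, against 5.04% (4.14 to 6.08) of the 2063 without. In library 2 the shares were 9.09% (4.45 to 16.1) and 5.23% (4.32 to 6.27), with overlapping intervals. In neutrophils of library 1 they were 60.1% (56.4 to 63.8) and 51.6% (49.8 to 53.3), and in library 2 55.9% (47.9 to 63.7) and 50.6% (48.0 to 53.2), which overlapped. In monocytes they were 29.5% and 23.2% in library 1 and 19.5% and 13.8% in library 2, with overlapping intervals in each. Vegfa was not alone in this. In macrophages of library 2, 20.9% (10.0 to 36.0) of the 43 cells with an Hbegf UMI had one of Osm, against 5.11% (4.22 to 6.13) of those without. In library 1 these shares were 12.5% and 5.88%, with overlapping intervals. The cells of each class were pooled over its states within a library, and nothing more is read from the shares.

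Of the EGF family, 10 of 11 ligands were measured and 3 reached 20 CPM in monocytes: Areg, Ereg, which encodes epiregulin, at 50.8 CPM (45.8 to 56.1) and 29.2 CPM (23.8 to 35.3), and Nrg1, which encodes a neuregulin, at 29.8 CPM (26.1 to 34.0) and 15.1 CPM (11.4 to 19.8). Ereg and Nrg1 were the lower in library 2, where Areg was the higher. None of the 4 EGF family receptors reached 20 CPM in any of the 7 classes, and Egfr had 2 and 4 UMIs in monocytes. The proteases that release the ligands were there: Adam17 stood at 59.3 and 84.4 CPM and Adam10 at 85.1 and 70.6 CPM in monocytes.

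Among VEGF ligands, Vegfa alone of 5 measured reached 20 CPM in monocytes and in neutrophils. In macrophages Vegfb joined it, at 31.5 and 13.1 CPM. The co-receptor gene Nrp1 stood at 49.7 CPM (44.8 to 55.0) and 117 CPM (107 to 129) in monocytes, a log2 ratio of 1.09. Its higher level was in library 2, opposite to Vegfa. Of 5 VEGF receptor genes 2 reached 20 CPM in monocytes, and the other, Nrp2, was not higher in library 2. Of the PDGF ligands, monocytes held Pdgfa, at 42.2 CPM (37.7 to 47.2) and 14.3 CPM (10.6 to 18.8), in place of Pdgfb. PDGF receptors did not reach 20 CPM in any of the 7 classes. Osmr, the receptor chain of oncostatin M, had 0 UMIs in monocytes and macrophages of both libraries, which allows up to 0.492 and 1.03 CPM in monocytes, and of its family only Il6r reached 20 CPM there, at 152 and 158 CPM in monocytes.

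Of 15 hypoxia response genes, 11 reached 20 CPM in monocytes. Among them 2 were higher in library 2 and 0 were past 2-fold, against 2.28% of all genes. Their median log2 ratio was -0.42, against 0.05 over all genes. Ldha, a lactate dehydrogenase gene, stood at 2469 and 1625 CPM, Pgk1 at 807 and 589 CPM, Hk2 at 379 and 336 CPM and Hif1a, the oxygen-regulated transcription factor gene, at 432 and 264 CPM. In neutrophils the median was -0.13 against -0.08 over all genes, with 3 of 11 higher in library 2. Of these 11, 1 was past 2-fold, against 2.78% of all genes: Ero1a, higher in library 1, at 171 and 79.6 CPM. In macrophages the median was -0.01 against 0.06. The part of this list in the Vegfa ratios was not tested. Immediate early genes, which tissue dissociation can raise, had 10 of 13 members higher in library 2 in monocytes, with a median of 0.27. In neutrophils 6 of 15 were higher there, with a median of -0.11, and in macrophages 11 of 14, with 0.17. The counts were 12 of 12 in NK cells (median 0.36), 11 of 12 in B cells (0.29) and 7 of 13 in T cells (0.03). Over all genes these medians were -0.03, -0.02 and -0.02. Past 2-fold were 1 immediate early gene in neutrophils, higher in library 1, and 1 in NK cells, higher in library 2. The shares of all genes past it were 2.78% and 0.576%. How many of all genes were merely higher in library 2 was not counted. The part of the immediate early genes in the ratios was not tested.

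The genes whose pattern was most like each member were ranked by Pearson correlation of log2(CPM + 10) over 14 points, which are 7 classes in 2 libraries. Points of a library share its preparation and depth, and the values are descriptions. For Vegfa they were Thbd (0.97), Rbm47, Arpc1a, Cxcl3 and Pgam1 (0.94), and for Osm Ccr1 (0.99), Gng10, Slc16a3, Slc2a6 and Id1 (0.98). For Areg they were Prelid1 (0.95), Fcnb, Trim8, Plcb1 and Prdx6 (0.91), and for Hbegf Bst2 (0.93), Gsn, Spg21, Mocs2 and Lpar6 (0.91). For Pdgfb they were Dsc2 (0.97), Afmid, Nrgn, Kir3dl1 and Scin (0.96). Among the members themselves, Vegfa and Osm had a correlation of 0.79 and Vegfa and Areg of 0.65, while Vegfa and Pdgfb had one of -0.40.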

How the data were processed

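A 10x Genomics single cell 3′ kit and Illumina NovaSeq sequencing were used, per the labels' protocols. The authors deposited a matrix of raw UMI counts, written by Cell Ranger 4.0.0 per the file headers, with no build or annotation stated. Lines of the same symbol were added up.

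Cells needed 200 genes or more and no more than 20% mitochondrial UMIs, and 315 barcodes of library 1 and 235 of the other failed. Scrublet in scanpy 1.11.5, with an expected share of 8%, called 634 (4.54%) and 997 (6.46%) doublets, which were left out. A cell's panel score was the mean over marker genes of log-transformed counts per 10000, each divided by its root mean square. A gate needed a score of 0.5, 1.25 times the runner-up, and UMIs of 3 markers (2 for states). T cells also needed a UMI of a CD3 gene. One marker of a T cell state is not reported here. A cell lay near a cut with a score under 0.6 or under 1.5 times the runner-up. The gate rule was set after seeing the data.

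Counts were summed per class and library. Shares have exact binomial and ratios of CPM exact conditional intervals, at 95%. The ratio step was tested on simulated data. Members and lists were chosen with earlier results of these data known. Named beside the members were up to 4 genes of a list at 20 CPM or more, plus others where a result turned on them, and the 5 genes most like each member, of those with 50 CPM or more in a class. Alternatives were other cell filters, doublets kept, Leiden clusters, a 1.5 margin, edgeR 4.0.16 TMM scaling, a pseudocount of 1, no minimum, means over cells and thinned shares.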

Additional observations from a re-analysis of the deposited data

Results flagged for a closer look

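For Hbegf and Areg the ratio of CPM between the libraries lay above 1 in some classes and below 1 in others, with intervals clear of 1 on both sides. The difference between classes was not tested. The ratio of Hbegf, library 2 over library 1, was 1.46 in macrophages and 1.80 in NK cells, but 0.218 in neutrophils, where it rests on 40 and 5 UMIs, and 0.693 in T cells. That of Areg was 1.61 in monocytes, 1.38 in macrophages and 6.22 in NK cells, the last from 4 and 44 UMIs, but 0.740 in T cells. By state, the T cell ratios did not go one way. Hbegf was 1.89-fold (1.22 to 3.02) higher in library 2 in CD8 effector cells, while 70 of the 119 Hbegf UMIs in T cells of library 1 came from 78 type 17 cells, of which library 2 held 30. The Areg ratio was 1.31 in CD8 effector, 0.879 in regulatory and 0.909 in naive-like cells, with intervals that included 1, and 0.252 in dividing cells, where 1 cell of library 1 held 31 of 50 UMIs. The T cells of library 2 include 366 cells with a UMI of Rag1 or Dntt, and their part in the T cell ratios was not tested.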

How the results depend on the processing

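Under each of the 7 alternatives run for it, the count of member ratios past 2-fold stayed at 2, of 8 to 30 ratios formed. None of the 60 recomputed single ratios took the other sign, but that of Hbegf in macrophages was not formed with Leiden clusters, the 1.5 margin or TMM scaling, where it fell under 20 CPM. Of the 10 highest classes (5 genes in 2 libraries), 8 stayed with Leiden clusters and 8 with thinned shares, 9 with the 1.5 margin, which was added after seeing the data, and all 10 with doublets kept and with the stricter cell filter; each class that changed was that of Hbegf. Of 50 recomputed levels, 9 left the counting interval. With Leiden clusters Vegfa in monocytes of library 1 was 502 CPM, Areg in monocytes of library 2 was 86.0 CPM and Hbegf in macrophages of library 2 was 17.7 CPM. As a mean over cells, Vegfa in monocytes of library 2 was 222 CPM, Areg in monocytes of library 1 was 56.8 CPM, and Osm in neutrophils was 737 and 683 CPM. With doublets kept, Osm in neutrophils was 687 and 615 CPM. The cause was not tested. No paired analysis was possible because each group has 1 sample and no test was run, and no library could be left out. Pdgfb in monocytes and neutrophils and Hbegf in neutrophils of library 2 rest on 7 UMIs or fewer, which limits their precision.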

Other observations

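Cells that passed no gate also held members. Their Vegfa level was 158 CPM (150 to 167) in library 1, against 62.0 CPM (57.4 to 67.0) in library 2, which made up 13.7% and 18.5% of all Vegfa UMIs. For Areg they stood at 23.9 and 21.9 CPM, with 10 cells holding 70.5% and 60.8% of the UMIs. Thymocyte-gated cells, found in library 2 alone with 505 cells, had 0 Pdgfb UMIs, which allows up to 2.26 CPM by the exact Poisson interval, and 23.9 CPM of Vegfa.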
